A study of Rattus norvegicus with 4 samples.

Results

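The genes described here are the rat translation initiation and elongation factors measured in cultured cortical neurons treated with topotecan or with its solvent. They were taken as every gene of the deposited count table whose symbol begins with Eif1 to Eif6 or with Eef1 or Eef2, counted once per Ensembl gene identifier, with at least 40 counts summed over the 4 libraries. The rule matched 59 gene identifiers, and 58 of the 21648 identifiers in the table met the count minimum. Eif4e1b, with 2 counts in all, fell below it. Summed counts of the 58 members ran from 132 for Eef2kmt to 295936 for Eef2, with a median of 13823, and no member was near the minimum.

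The study treated cortical neurons of rat embryos of day 18 with topotecan or with DMSO, and sequenced total RNA from 2 libraries of each treatment. Topotecan inhibits topoisomerase I, which relieves the twist that transcription builds up in DNA, and the submitters chose it to reduce long gene transcription. Both groups were the same commercially supplied cells, plated in a neural induction medium and moved after 24 hours to a neuronal medium with a supplement. No dose or duration of topotecan was stated in the labels used here. The labels do not say whether the duplicates came from separate cultures, so p-values measure only the spread between these libraries, which may be technical.

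Protein synthesis begins when eIF2 brings the initiator tRNA to the small ribosomal subunit, eIF3 and the eIF1 family hold that subunit in a scanning state, and the eIF4 group recruits it to the capped end of an mRNA. The exchange factor eIF2B reloads eIF2 with GTP, and kinases that phosphorylate the alpha subunit of eIF2 block that step and so slow initiation. During elongation eEF1A delivers aminoacyl-tRNA, the eEF1B subunits recharge eEF1A, and eEF2 moves the ribosome along. In neurons these factors serve both the cell body and local synthesis in dendrites, and many of their mRNAs carry a terminal oligopyrimidine tract (5′ TOP) through which mTOR controls their translation.

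The topotecan libraries held 31181382 and 25459488 counts and the DMSO libraries 27347410 and 22957786. Pan-neuronal markers were abundant in every library, summing to 24601 and 25959 counts per 1000000 (CPM, after TMM scaling) in topotecan and 22129 and 19996 CPM in DMSO; of the 11 tested, 4 were higher and 2 lower. All 11 astrocyte markers were lower in topotecan, where they summed to 115 and 127 CPM, against 4575 and 4654 CPM in DMSO. All 10 oligodendrocyte lineage markers were lower as well, at 136 and 123 CPM in topotecan and 4008 and 4308 CPM in DMSO, with Sox10 at 0 counts in both topotecan libraries. The 5 dividing progenitor markers that could be tested were lower, and the summed markers of microglia and of endothelial cells stayed below 1 CPM in every library. In bulk RNA, fewer cells of a type and less RNA per cell cannot be told apart. The part of these marker differences in the results for the translation factors was not tested.

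As a set, the translation factors lay slightly higher in topotecan: in edgeR's quasi-likelihood test over 12162 genes, 22 of the 58 members rose and 6 fell at an adjusted p under 0.05, whereas 3 rose and 7 fell once the libraries were scaled to neuronal genes. Over all genes tested, 16.2% were called higher and 23.5% lower. Each TMM count by role or list below, with all 4 libraries, is to be read beside these shares. For counts under neuronal scaling the shares were 2.86% called higher and 32.9% called lower. All 58 members passed the low-count filter. Their median log2 fold change (topotecan over DMSO) was 0.20, beside -0.01 over all genes tested. The changes were small. The 22 rises spanned log2 fold changes of 0.20 to 0.70, the 6 falls spanned -2.35 to -0.28, and only Eef2kmt was called with a change of at least 2-fold, a size reached by 14.4% of all genes tested. Members took 1.59% and 1.57% of all counts in the topotecan libraries and 1.44% and 1.45% in the DMSO libraries.

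The direction depends on how the libraries are scaled. Scaling to the summed counts of 21 neuronal genes, in place of TMM, which draws on most genes, moved the median over all genes tested by -0.25 on the log2 scale. That sum is carried by a few abundant genes. Among them Tubb3 (log2 fold change 0.35), Uchl1 (0.78) and Stmn3 (0.42) were themselves higher with TMM. Stmn2 (0.04) and Rab3a (0.10), also abundant, were not called, and Thy1 (-0.45) was lower. Of the 21 genes 8 were higher, 3 lower and 10 not called with TMM, and their median was 0.12. The sum also differed between the DMSO libraries, at 29554 CPM in replicate 1 and 25983 CPM in replicate 2. In the topotecan libraries it was 32305 and 33579 CPM. With scaling to neuronal genes the member median was -0.05 and the all-gene median -0.26. The members stood 0.21 above the typical gene under both scalings. That is no separate check, because a change of scaling moves all genes by nearly the same amount. Eif2b3, Eef1e1 and Eif4ebp1 were the 3 members still called higher, where 2.86% of all genes were; the 6 falling members and Eef2 were the 7 called lower, where 32.9% of all genes were. Of the 22 members that rose with TMM, 17 had log2 fold changes above 0 under neuronal scaling and 5 (Eif2s1, Eif3c, Eif3d, Eif3l and Eif3m) below 0.

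Calls also moved when 1 library was left out. Such a fit has 1 library in an arm, which is assumed to vary like the 2 libraries of the other group, and less power, so a lost call does not by itself show a smaller change. The member median stayed between 0.18 and 0.23. Without topotecan replicate 1, 16 members were called higher (9.72% of all genes) and 1 lower (18.8% of all genes). Without topotecan replicate 2, 15 were called higher (10.0% of all genes) and 3 lower (18.8% of all genes). 14 of the 22 rises and, among the falls, only Eef2kmt were called in each of the 4 fits that left out 1 library. The values of the topotecan and DMSO libraries did not overlap for any of the 28 called members. The calls were made from these same values, so the lack of overlap is no separate support for them. With TMM, 40 members had both topotecan libraries above both DMSO libraries (33.7% of all genes tested) and 9 had both below (36.9%). Log2 fold changes were above 0 for 44 members with TMM and for 21 under neuronal scaling, where the all-gene median was -0.26.

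**Figure D1:**
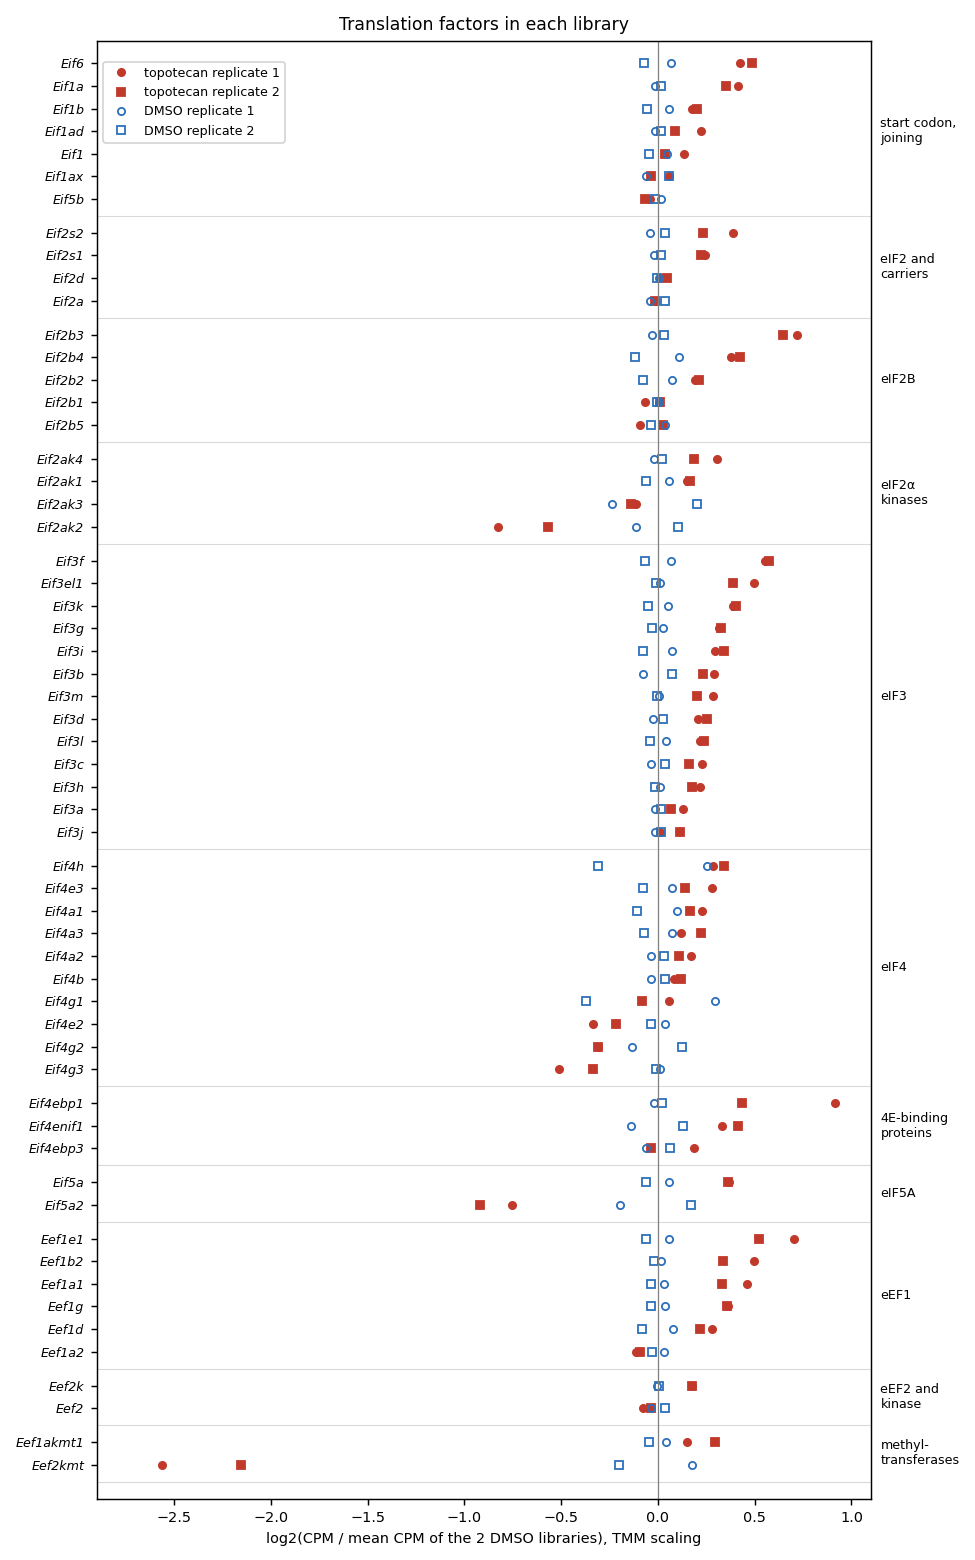
Level of each of the 58 members in each library, as log2 of CPM over the mean CPM of the 2 DMSO libraries after TMM scaling; one point per library, members grouped by role. With TMM, 40 members have both topotecan libraries above both DMSO libraries (33.7% of all genes tested) and 9 have both below (36.9%). Log2 fold changes are above 0 for 44 of the 58 with TMM and for 21 with scaling to neuronal genes. The all-gene median is -0.26 with the latter scaling.

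**Figure D2:**
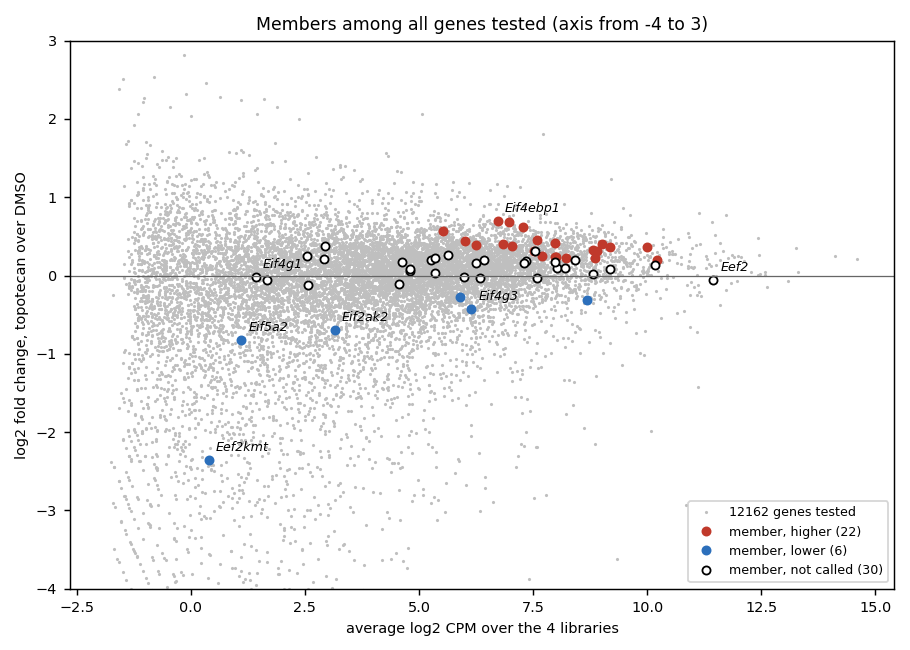
Log2 fold change (topotecan over DMSO, TMM scaling) against average log2 CPM for the members and for all 12162 genes tested; 411 genes lie outside the vertical axis from -4 to 3. Members sit close to 0 among abundant genes, with a median of 0.20 (-0.05 under neuronal scaling), and Eef2kmt at -2.35 stands apart.

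Start regions of 7 members are shown so that their letters can be set beside their values: the paralogs Eef1a1 and Eef1a2, the 5′ TOP gene Eef1b2, 3 initiation factors that rose (Eif3g, Eif3m and Eif6) and the interferon-inducible kinase Eif2ak2, which fell. Each is the 120 bases from 90 before to 30 after the RefSeq start on GRCr8, 5′ to 3′ along the gene. Capitals mark the TATA-type letters TATAA, the ETS-type letters CCGGAAG, a pyrimidine tract CTTTT and an interferon-response-type pair of GAAA with any 2 bases between them, each searched on both strands.
Eef1a1 (chr8:88225040-88225159, minus strand): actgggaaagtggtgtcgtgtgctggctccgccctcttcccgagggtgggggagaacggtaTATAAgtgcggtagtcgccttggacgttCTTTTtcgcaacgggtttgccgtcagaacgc
Eef1b2 (chr9:72074001-72074120, plus strand): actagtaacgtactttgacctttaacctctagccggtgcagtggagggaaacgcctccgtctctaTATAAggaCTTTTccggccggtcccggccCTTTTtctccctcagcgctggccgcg
Eef1a2 (chr3:188652604-188652723, minus strand): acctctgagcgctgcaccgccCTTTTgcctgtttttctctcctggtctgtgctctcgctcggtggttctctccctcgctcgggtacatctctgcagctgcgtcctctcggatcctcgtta
Eif3g (chr8:27709917-27710036, minus strand): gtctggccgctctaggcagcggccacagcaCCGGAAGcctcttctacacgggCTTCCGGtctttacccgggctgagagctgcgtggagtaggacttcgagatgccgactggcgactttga
Eif3m (chr3:111897164-111897283, minus strand): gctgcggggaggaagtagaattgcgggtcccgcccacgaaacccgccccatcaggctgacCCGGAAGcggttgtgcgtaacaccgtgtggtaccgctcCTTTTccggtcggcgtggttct
Eif6 (chr3:164791381-164791500, minus strand): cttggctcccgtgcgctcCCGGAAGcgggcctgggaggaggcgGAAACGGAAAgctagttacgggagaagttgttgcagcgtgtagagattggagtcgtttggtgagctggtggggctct
Eif2ak2 (chr6:21941064-21941183, plus strand): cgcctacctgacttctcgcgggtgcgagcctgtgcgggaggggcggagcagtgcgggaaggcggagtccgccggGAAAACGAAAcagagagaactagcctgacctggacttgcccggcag
Eef1a1 and Eef1b2 hold TATAA 29 and 25 bases before the start and a CTTTT beginning 1 base before and 5 bases into the transcript, whereas the Eef1a2 window has neither TATAA nor a CTTTT at the start. In Eif3g, CCGGAAG stands 60 bases before the start and its reverse complement 38 bases before it. Eif2ak2, which fell, has the spaced GAAA pair 16 bases before the start, and Eif6, which rose with TMM, has it 47 bases before the start.

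RefSeq start windows of 300 bases (250 before to 50 after) were on hand for 52 of the 58 members, 55 windows in all; Eef1d, Eif3el1, Eif3h, Eif4b, Eif4e3 and Eif4ebp1 had no entry. CCGGAAG was present in 38.2% of member windows, beside 8.75% of all 33469 windows. It stood in 8 of 20 windows of members that rose (with TMM), 4 of 8 of members that fell and 9 of 27 of members not called. TATAA was present in 18.2% of member windows and 26.2% of all windows, CTTTT in 49.1% and 55.9%, and the spaced GAAA pair in 7.27% and 3.92%. The 33469 windows were not limited to the genes tested here, so these shares are not matched for expression. All are letter matches only and no binding was measured.

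Of the 7 factors that select the start codon and join the subunits, 2 rose with TMM, none fell, and none was called under neuronal scaling, with medians of 0.16 and -0.09 under the 2 scalings. Eif6, which keeps the large subunit from joining too early, had 216 and 226 CPM in the topotecan libraries, against 169 and 153 CPM in the DMSO libraries. Both topotecan libraries lay above both DMSO libraries, a log2 fold change of 0.46 ± 0.08 SE, adjusted p = 0.00061, and 0.21 under neuronal scaling. Eif1a, one of the genes for the scanning factor eIF1A, had 153 and 146 CPM in the topotecan libraries, against 113 and 116 CPM in the DMSO libraries, again without overlap, and its log2 fold change was 0.38 ± 0.08 SE, adjusted p = 0.00229. Its homologue Eif1ax overlapped between the groups, at 468 and 439 CPM in the topotecan libraries, against 430.1 and 468 CPM in the DMSO libraries. Eif1, which guards start codon choice, had 620.4 and 579.7 CPM in the topotecan libraries, against 583 and 547 CPM in the DMSO libraries, also overlapping (log2 fold change 0.09 ± 0.08 SE, adjusted p = 0.395). Eif5b, the GTPase that joins the subunits, had few counts, 73 to 94 per library, and was near level (log2 fold change -0.05 ± 0.21 SE, adjusted p = 0.862). Eif1b (0.19) and Eif1ad (0.16) were not called. Eif5 has no row under its symbol and was not analysed here.

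Among the 4 genes of eIF2 and the alternative carriers of initiator tRNA, both measured eIF2 subunits rose with TMM and the 2 alternative carriers did not pass, whereas none was called under neuronal scaling and the log2 fold change of Eif2s1 turned to -0.02. Eif2s2, the beta subunit, had 559 and 502 CPM in the topotecan libraries, against 416 and 439 CPM in the DMSO libraries. Its groups did not overlap and the log2 fold change was 0.31 ± 0.08 SE, adjusted p = 0.00666. Eif2s1, the alpha subunit that carries the regulatory phosphorylation, had 273 and 269 CPM in the topotecan libraries, against 228 and 233 CPM in the DMSO libraries, a rise of 17.4% (log2 fold change 0.23 ± 0.08 SE, adjusted p = 0.0262). Without topotecan replicate 1 neither subunit was called (adjusted p = 0.193 for Eif2s1 and 0.136 for Eif2s2), and Eif2s1 was also lost without topotecan replicate 2 (adjusted p = 0.147). Eif2a and Eif2d, which can bring initiator tRNA to some mRNAs in place of eIF2, had log2 fold changes of -0.02 and 0.03. Eif2s3, the gamma subunit, has no row under its symbol and was not analysed here.

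The 5 subunits of eIF2B divided: 2 rose with TMM and 3 were not called, and under neuronal scaling Eif2b3 alone was still called. Eif2b3 (ENSRNOG00000018375), the gamma subunit of the catalytic part, had 157 and 149.9 CPM in the topotecan libraries, against 93.7 and 97.9 CPM in the DMSO libraries. Both topotecan libraries stood well above either DMSO library, at a 1.60-fold level and a log2 fold change of 0.68 ± 0.08 SE, adjusted p = 2.2e-05. It held in all 4 fits that left out a library, and under neuronal scaling it was 0.43 (adjusted p = 0.0114). Eif2b4, the delta subunit, had 129 and 133 CPM in the topotecan libraries, against 107 and 91.5 CPM in the DMSO libraries (log2 fold change 0.40 ± 0.09 SE, adjusted p = 0.00426, and 0.15 under neuronal scaling). Eif2b5, the catalytic epsilon subunit that works with Eif2b3, overlapped between the groups at 77.0 and 83.7 CPM in the topotecan libraries, against 84.1 and 80.2 CPM in the DMSO libraries (log2 fold change -0.03 ± 0.09 SE, adjusted p = 0.812). Eif2b1 (-0.03) was close to level and Eif2b2 (0.20, adjusted p = 0.0988) did not pass. The differences between subunits were not tested.

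Of the 4 kinases that phosphorylate eIF2 alpha, 1 fell and 3 were not called with TMM, and the same held under neuronal scaling. Eif2ak2 (ENSRNOG00000048315), the kinase PKR that is switched on by double-stranded RNA, had 6.20 and 7.42 CPM in the topotecan libraries, against 10.2 and 11.8 CPM in the DMSO libraries. Both topotecan libraries lay below both DMSO libraries, a fall of 38.1% (log2 fold change -0.69 ± 0.17 SE, adjusted p = 0.00479); without topotecan replicate 1 the adjusted p was 0.0543. Eif2ak3, the kinase PERK of the endoplasmic reticulum, overlapped at 5.64 and 5.55 CPM in the topotecan libraries, against 5.18 and 7.02 CPM in the DMSO libraries. Eif2ak4, the kinase GCN2 that senses uncharged tRNA, had 6.46 and 5.95 CPM in the topotecan libraries, against 5.15 and 5.31 CPM in the DMSO libraries (log2 fold change 0.25 ± 0.17 SE, adjusted p = 0.283). Eif2ak1, the haem-regulated kinase HRI, was the most counted of the 4 and had a log2 fold change of 0.16 ± 0.09 SE, adjusted p = 0.196; it passed only without DMSO replicate 1 (adjusted p = 0.0445). Eif2ak2, Eif2ak3 and Eif2ak4 had 614 to 933 counts in all and standard errors of 0.17 to 0.19, so small changes may have been missed. The smallest detectable change was not computed.

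Of the 13 measured eIF3 genes, 9 rose and none fell with TMM, with a median of 0.24, whereas none was called under neuronal scaling and the median was -0.01. Their log2 fold changes ran from 0.06 to 0.56. Eif3f, a subunit of the outer part of the complex, had 54.8 and 55.6 CPM in the topotecan libraries, against 39.0 and 35.6 CPM in the DMSO libraries. Its log2 fold change was the highest among the eIF3 genes, at 0.56 ± 0.10 SE, adjusted p = 0.00067, and under neuronal scaling it was 0.32 (adjusted p = 0.0894). Eif3el1, listed by RefSeq under the Entrez number of Eif3e, had 76.3 and 70.9 CPM in the topotecan libraries, against 54.6 and 53.8 CPM in the DMSO libraries (log2 fold change 0.44 ± 0.10 SE, adjusted p = 0.00229). Eif3k (0.39), Eif3g (0.32, the RNA-binding subunit whose start region is shown above) and Eif3i (0.32) followed, all without overlap. Eif3m (0.24), Eif3l (0.23), Eif3d (0.23, a subunit that can itself bind the cap) and Eif3c (0.20) rose least. These last 4 lost their call without topotecan replicate 1 (adjusted p from 0.121 for Eif3d to 0.286 for Eif3c) and without topotecan replicate 2, and Eif3c also without DMSO replicate 1, while Eif3i lost it only without topotecan replicate 2. Eif3a, the largest subunit and scaffold of the complex, had 312 and 299 CPM in the topotecan libraries, against 283 and 288 CPM in the DMSO libraries, a difference that did not pass (log2 fold change 0.10 ± 0.08 SE, adjusted p = 0.333). Eif3b (0.26, adjusted p = 0.0557), Eif3h (0.20) and Eif3j (0.06), the loosely attached subunit, did not pass either.

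Of the 10 genes that act at the cap and as helicases, 3 fell, none rose and 7 were not called with TMM. Over all genes tested, 23.5% were called lower and 16.2% higher. Under neuronal scaling the same 3 were called lower, where 32.9% of all genes were. Eif4g3, a scaffold that links cap, helicase and eIF3, had 56.8 and 64.1 CPM in the topotecan libraries, against 81.5 and 80.3 CPM in the DMSO libraries. Neither topotecan library reached the DMSO values, and the log2 fold change was -0.42 ± 0.10 SE, adjusted p = 0.00351. Eif4g2, the scaffold DAP5 that lacks the cap-binding partner site, had 367 and 367 CPM in the topotecan libraries, against 415 and 496 CPM in the DMSO libraries; the topotecan libraries matched each other closely and the DMSO libraries differed (log2 fold change -0.31 ± 0.09 SE, adjusted p = 0.0129). Eif4e2, a cap-binding homologue that represses translation, had 52.0 and 56.4 CPM in the topotecan libraries, against 67.2 and 64.0 CPM in the DMSO libraries (log2 fold change -0.28 ± 0.10 SE, adjusted p = 0.0373). Without topotecan replicate 1 none of the 3 was called (adjusted p = 0.101 for Eif4g3, 0.0554 for Eif4g2 and 0.348 for Eif4e2). Eif4g2 and Eif4e2 were also lost without topotecan replicate 2 (adjusted p = 0.0504 and 0.115), Eif4g2 without DMSO replicate 2 (0.0664) and Eif4e2 without DMSO replicate 1 (0.0577). The log2 fold change of Eif4g2 was -0.17 without DMSO replicate 2 and -0.42 without DMSO replicate 1. Eif4e2 was also not called with DESeq2 (adjusted p = 0.0656) or without the count filter (adjusted p = 0.05005).

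The helicase genes themselves did not pass with all 4 libraries. Eif4a2, the abundant neuronal form of the helicase eIF4A, had 1230.2 and 1181 CPM in the topotecan libraries, against 1068 and 1119 CPM in the DMSO libraries (log2 fold change 0.14 ± 0.07 SE, adjusted p = 0.132). Eif4a1, its close paralog, had 374 and 359 CPM in the topotecan libraries, against 343 and 297 CPM in the DMSO libraries (log2 fold change 0.20 ± 0.08 SE, adjusted p = 0.0824). Neither pair of groups overlapped, and Eif4a1 passed without DMSO replicate 1 (adjusted p = 0.00117) and without the count filter (adjusted p = 0.0378). Eif4a3, the helicase of the exon junction complex, had a log2 fold change of 0.17 ± 0.08 SE, adjusted p = 0.12 and also passed only without DMSO replicate 1 (adjusted p = 0.00903). Eif4h, a helicase cofactor, had 204 and 212 CPM in the topotecan libraries, against 199 and 135 CPM in the DMSO libraries; DMSO replicate 2 stood far below the other 3 libraries, and the log2 fold change was 0.31 ± 0.13 SE, adjusted p = 0.0812. Its value and call turned on the setting: the log2 fold change was 0.06 without DMSO replicate 2 (adjusted p = 0.598) and 0.63 without DMSO replicate 1 (adjusted p = 1.1e-07), and it was called higher without topotecan replicate 1 (adjusted p = 0.038) and without the count filter (adjusted p = 0.0015), though not under neuronal scaling (0.08). Eif4b (0.10), the other cofactor, and Eif4e3 (0.21), a cap-binding homologue, were not called. Eif4g1, the best known of the scaffolds, had only 47 to 88 counts per library and a log2 fold change of -0.02 ± 0.26 SE, adjusted p = 0.959. Eif4e, the cap-binding protein itself, has no row under its symbol and was not analysed here.

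The 3 genes whose products bind eIF4E gave 1 rise, with TMM and under neuronal scaling alike. Eif4ebp1 (ENSRNOG00000012582), the repressor that mTOR switches off by phosphorylation, had 152 and 109 CPM in the topotecan libraries, against 79.7 and 81.8 CPM in the DMSO libraries. Both topotecan libraries lay above both DMSO libraries but differed from each other, with topotecan replicate 1 the higher, and the log2 fold change of 0.70 ± 0.13 SE, adjusted p = 0.00064 was the highest of the 58 members with all 4 libraries. Without topotecan replicate 1 the log2 fold change was 0.44 (adjusted p = 0.0134), below the 0.65 of Eif2b3 in that fit, and without topotecan replicate 2 it was 0.92. With all 4 libraries it was 0.45 under neuronal scaling (adjusted p = 0.0162). Eif4ebp3 overlapped at 30.8 and 26.4 CPM in the topotecan libraries, against 25.9 and 28.2 CPM in the DMSO libraries (log2 fold change 0.08 ± 0.12 SE, adjusted p = 0.623). Eif4enif1, which carries eIF4E into the nucleus, had a log2 fold change of 0.37 ± 0.17 SE, adjusted p = 0.0941. Eif4ebp2 has no row under its symbol and was not analysed here.

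The paralogs of eIF5A, the factor with a hypusine residue that helps ribosomes past stalling sequences, moved in opposite directions with TMM; under neuronal scaling the fall of Eif5a2 was called and Eif5a, at 0.12, was not. Eif5a, the common form, had 1157 and 1153 CPM in the topotecan libraries, against 934 and 859 CPM in the DMSO libraries. Its topotecan libraries were nearly equal and above both DMSO libraries (log2 fold change 0.37 ± 0.07 SE, adjusted p = 0.00125). Eif5a2 had 1.60 and 1.43 CPM in the topotecan libraries, against 2.36 and 3.04 CPM in the DMSO libraries, from 36 to 71 counts per library. Its groups did not overlap either, and the log2 fold change was -0.82 ± 0.27 SE, adjusted p = 0.0251, but it was not called without topotecan replicate 1 (0.0532), topotecan replicate 2 (0.1) or DMSO replicate 2 (adjusted p = 0.155), nor with DESeq2 (adjusted p = 0.129). A ratio within a library needs no scaling between libraries. Per 100 counts of Eif5a there were 0.138 and 0.124 counts of Eif5a2 in topotecan and 0.252 and 0.354 in DMSO, a log2 difference of -1.19.

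Of the 6 genes grouped by symbol as eEF1, 5 rose and none fell with TMM, with a median of 0.38. Under neuronal scaling the median was 0.13 and only Eef1e1 was called, a gene placed in this group by its symbol alone. Eef1a1 (ENSRNOG00000009439), the main form of the factor that delivers aminoacyl-tRNA, had 616 and 564 CPM in the topotecan libraries, against 458 and 437 CPM in the DMSO libraries. Both topotecan libraries lay above both DMSO libraries (log2 fold change 0.40 ± 0.08 SE, adjusted p = 0.00102, 0.15 under neuronal scaling). Among the exchange subunit genes, Eef1b2 had 304 and 272 CPM in the topotecan libraries, against 218 and 213 CPM in the DMSO libraries (log2 fold change 0.42 ± 0.08 SE, adjusted p = 0.00111). Eef1g, the structural subunit, had 655 and 652 CPM in the topotecan libraries, against 523 and 496 CPM in the DMSO libraries (log2 fold change 0.36 ± 0.07 SE, adjusted p = 0.00142). Eef1d, the further exchange subunit, had 231 and 222 CPM in the topotecan libraries, against 201 and 180.3 CPM in the DMSO libraries. It rose least (log2 fold change 0.25 ± 0.08 SE, adjusted p = 0.0294) and was called in none of the fits without topotecan replicate 1 (0.211), topotecan replicate 2 (0.0938) or DMSO replicate 2 (adjusted p = 0.0819). Eef1e1 (ENSRNOG00000016390), a scaffold protein of the multi-tRNA synthetase complex also called AIMP3, had 200.2 and 177 CPM in the topotecan libraries, against 128 and 118 CPM in the DMSO libraries. Both topotecan libraries were above both DMSO libraries, at a 1.53-fold level (log2 fold change 0.61 ± 0.09 SE, adjusted p = 0.00011); under neuronal scaling it was 0.37 (adjusted p = 0.0272).

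Eef1a2 (ENSRNOG00000012477), the form of eEF1A that mature neurons and muscle use, was the 1 gene of this role that was not called. It had 22.4 and 22.8 CPM in the topotecan libraries, against 24.8 and 23.8 CPM in the DMSO libraries; the topotecan libraries were just below the DMSO libraries and the difference did not pass (log2 fold change -0.11 ± 0.12 SE, adjusted p = 0.509). Per 100 counts of Eef1a1 there were 3.64 and 4.04 counts of Eef1a2 in topotecan and 5.42 and 5.43 in DMSO, a log2 difference of -0.50. Both ratios, this one and that of the eIF5A pair, gave an exact 2-sided permutation p of 0.333, the smallest that 6 arrangements of 4 libraries allow, or 0.5 adjusted over the 3 ratios. For the helicase pair there were 329 and 329 counts of Eif4a2 per 100 of Eif4a1 in topotecan and 311 and 377 in DMSO, overlapping, with a log2 difference of -0.06 (exact permutation p of 1) that turned to 0.08 without DMSO replicate 2.

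**Figure D3:**
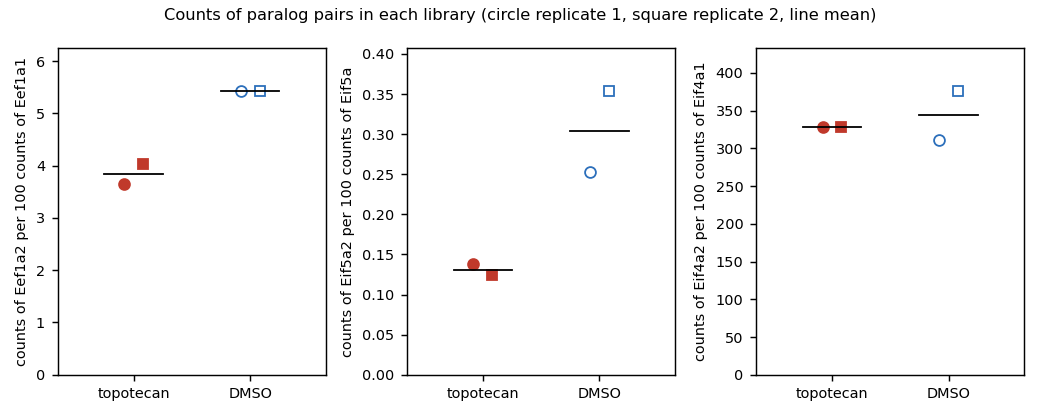
Counts of one paralog per 100 counts of the other in each library (circle replicate 1, square replicate 2, line the mean of 2), topotecan left and DMSO right, each axis starting at 0. Eef1a2 per 100 Eef1a1 sits at 3.64 and 4.04 in topotecan against 5.42 and 5.43 in DMSO, Eif5a2 per 100 Eif5a is also lower in topotecan, and Eif4a2 per 100 Eif4a1 overlaps; these ratios do not depend on the scaling between libraries.

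Eef2, the translocase and the most counted member, did not pass with TMM and was called lower under neuronal scaling. It had 2682 and 2764 CPM in the topotecan libraries, against 2765 and 2904 CPM in the DMSO libraries. Both topotecan libraries were just below both DMSO libraries, a log2 fold change of -0.06 ± 0.07 SE, adjusted p = 0.526, and -0.31 under neuronal scaling (adjusted p = 0.0492). Eef2k, the calcium-dependent kinase that inactivates eEF2, had 26.1 and 26.2 CPM in the topotecan libraries, against 23.1 and 23.2 CPM in the DMSO libraries (log2 fold change 0.18 ± 0.12 SE, adjusted p = 0.25).

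Of the methyltransferases that modify elongation factors, Eef2kmt fell and Eef1akmt1 was not called, under both scalings. Eef2kmt (ENSRNOG00000002876), which methylates a lysine of eEF2, had 0.359 and 0.476 CPM in the topotecan libraries, against 2.39 and 1.84 CPM in the DMSO libraries, from 11 and 12 counts in topotecan and 66 and 43 counts in DMSO. The gap is far wider than the spread within either group, a level 5.10-fold lower (log2 fold change -2.35 ± 0.37 SE, adjusted p = 0.00018). It is the least counted of the 58 members. Eef1akmt1, which acts on a lysine of eEF1A, had 41.4 and 45.7 CPM in the topotecan libraries, against 38.5 and 36.2 CPM in the DMSO libraries (log2 fold change 0.22 ± 0.11 SE, adjusted p = 0.119); it passed only without DMSO replicate 1 (adjusted p = 0.042).

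**Figure D4:**
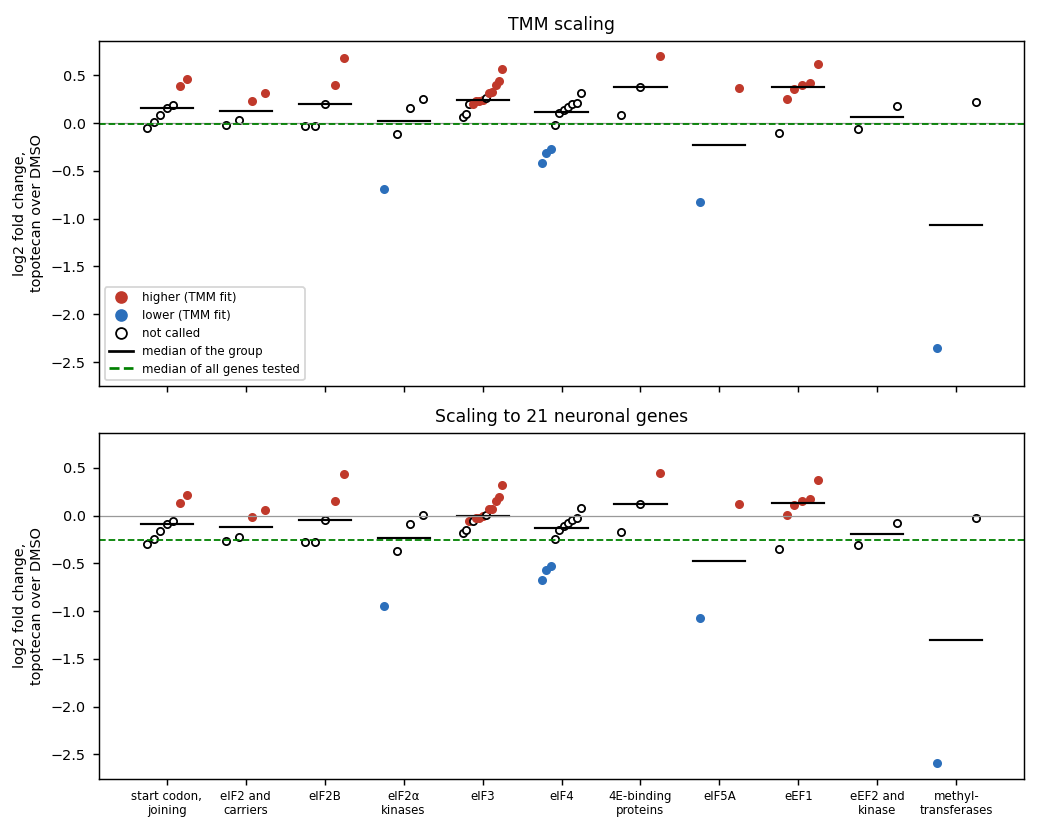
Log2 fold change (topotecan over DMSO) of each member by role, with TMM scaling above and scaling to neuronal genes below; the dashed line is the median over all genes tested, -0.01 above and -0.26 below, and colours give the TMM calls. The eIF3 and eEF1 roles have medians of 0.24 and 0.38 with TMM and of -0.01 and 0.13 with neuronal scaling. In the upper panel 44 members lie above the all-gene median and in the lower 45, as a change of scaling moves all genes nearly alike.

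The members are short genes among those measured. Their median genomic span in RefSeq was 15.04 kb, beside 25.9 kb over the 96.4% of tested genes that had a span, and only Eif4g3 (221 kb) and Eif4e3 (149 kb) reached 100 kb, as 16.1% of all tested genes did. Over all tested genes, whatever their span, 16.2% were called higher and 23.5% lower with TMM. The shares called within a class of span were not computed. Of the 44 members under 30 kb, 20 rose and 4 fell with TMM, with a median of 0.21, beside 0.10 over all tested genes of that span. Of the 14 longer ones 2 rose (Eif2b3 and Eif3el1) and 2 fell (Eif2ak2 and Eif4g3), with a median of 0.17, beside -0.15 over all tested genes of 30 kb or more. Eif4g3 was thus the longest member and among the falls, while Eif4e3, the next longest, did not pass. Spearman's rho between span and log2 fold change over the 58 members was -0.21, given as a description of genes measured in the same 4 libraries.

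Near-identical copies can take reads from several of these genes. RefSeq lists entries named as pseudogenes for 31 members, 20 for Eef1a1, 16 for Eef1g, 8 each for Eif1 and Eif4a1 and 5 for Eef2. Among these 31 members 16 rose and 2 fell with TMM, and among the other 27 6 rose and 4 fell. Over all genes tested 16.2% were called higher and 23.5% lower, and the difference between the 31 and the 27 members was not tested. How the authors' counting treated reads that match several places was not stated in any source read, so the levels of Eef1a1 and Eef1g in particular are uncertain, and the Ensembl identifier of Eif4ebp3 is paired with more than 1 Entrez number in the table.

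Genes that act with the factors moved in both directions, and each count below is with TMM. For comparison, 16.2% of all genes tested were called higher and 23.5% lower. No list was tested as a set. Of 8 members of the 5′ TOP class that were measured, 5 rose (Eef1a1, Eef1b2, Eef1d, Eef1g and Eif3f) and none fell, with a median of 0.30, against 0.06 under neuronal scaling. Of 7 poly(A)-binding proteins and partners, 4 rose and none fell; Pabpc4 had 23.1 and 19.7 CPM in the topotecan libraries, against 13.7 and 13.6 CPM in the DMSO libraries (log2 fold change 0.65 ± 0.13 SE, adjusted p = 0.00167), and Pabpc1, the main cytoplasmic form, had a log2 fold change of 0.41 ± 0.09 SE, adjusted p = 0.00213, which was not called without topotecan replicate 1 (adjusted p = 0.058). Neither was called under neuronal scaling. Of the 9 hypusine and diphthamide enzymes, which modify eIF5A and eEF2, 5 rose and none fell. Those with the smallest adjusted p were Dph1 (log2 fold change 0.59 ± 0.15 SE, adjusted p = 0.00621) and Dph7 (log2 fold change 0.43 ± 0.11 SE, adjusted p = 0.00706), and neither of these was called under neuronal scaling; without topotecan replicate 1 Dph7 had an adjusted p of 0.0707, and without DMSO replicate 2 the log2 fold change of Dph1 was 0.39. Dohh, the hydroxylase of the hypusine pathway, was named after its values were seen: it had 134 and 152 CPM in the topotecan libraries, against 124 and 64.8 CPM in the DMSO libraries, with DMSO replicate 2 far below DMSO replicate 1, a log2 fold change of 0.59 ± 0.20 SE, adjusted p = 0.0305, and no call without DMSO replicate 2 (adjusted p = 0.0648).

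Of 12 genes of mTOR and MNK signalling, 2 rose and 2 fell. Rheb, the GTPase that activates mTOR, had 210.1 and 206 CPM in the topotecan libraries, against 156 and 137 CPM in the DMSO libraries (log2 fold change 0.51 ± 0.09 SE, adjusted p = 0.00036, not called under neuronal scaling at 0.26). Rptor, the mTORC1 scaffold, had 15.04 and 16.6 CPM in the topotecan libraries, against 25.8 and 24.5 CPM in the DMSO libraries (log2 fold change -0.67 ± 0.13 SE, adjusted p = 0.00079), and was also called lower under neuronal scaling. Of 9 accessory initiation proteins 1 rose and 3 fell. Pdcd4, which blocks the eIF4A helicase, had 47.7 and 47.9 CPM in the topotecan libraries, against 105 and 108 CPM in the DMSO libraries, without overlap (log2 fold change -1.16 ± 0.09 SE, adjusted p = 2.2e-07). Dap had 9.10 and 8.33 CPM in the topotecan libraries, against 24.2 and 22.4 CPM in the DMSO libraries (log2 fold change -1.42 ± 0.14 SE, adjusted p = 1.9e-06).

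Of 6 genes for eIF2 phosphatase subunits and partners, Dnajc3, the P58IPK inhibitor of eIF2 alpha kinases, was the 1 that fell, at 2.84 and 3.25 CPM in the topotecan libraries, against 5.73 and 7.11 CPM in the DMSO libraries (log2 fold change -1.08 ± 0.20 SE, adjusted p = 0.00083). Of 4 termination and ribosome rescue genes, Hbs1l was the 1 that fell (log2 fold change -0.27 ± 0.07 SE, adjusted p = 0.0114); it was not called without topotecan replicate 1 (adjusted p = 0.122) or topotecan replicate 2 (0.0949).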

How the data were processed

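The deposited file is a single table of raw counts per gene for 4 libraries, made by the authors with no normalization. STAR and edgeR are named, without versions, per the submitters' processing notes. Build, gene annotation, read counter and strandedness were not given in the sources used here. For that reason overlapping, antisense and near-identical genes can share reads. Per the labels' protocols the kit was one for small RNA, while 96.3% to 97.0% of each library's counts lie on protein-coding genes. The table held 22641 lines for 21648 gene identifiers; 792 identifiers stood on several lines with identical counts and were counted once. 14 identifiers carried no symbol. Duplicates differed by more than sampling noise (chi-square per degree of freedom 9.34 in topotecan and 13.0 in DMSO) and each was kept as its own sample.

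Counts of all genes were fitted with edgeR 4.0.16 (R 4.3.3) using glmQLFit and glmQLFTest, treatment as the only term, TMM factors and filterByExpr (minimum count 10, minimum total 15), which left 12162 genes and 2 residual degrees of freedom; the biological coefficient of variation was 0.0831. The Benjamini-Hochberg adjustment ran over the 12162 genes and calls were made at 0.05. Each standard error is |log2 fold change| / √F. CPM are counts per 1000000 after TMM scaling. The script was tested on simulated data. Alternatives were RLE size factors, scaling to the summed counts of neuronal genes (21 of 23 listed genes measured), no count filter, DESeq2 1.42.0, limma-voom (limma 3.58.1), a replicate block and leaving out each library. Ratios of paralogs were tested by exact permutation.

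The members and lists were chosen with earlier results of these data known. Described in full are the called members with the 8 smallest adjusted p in each direction, a fixed set of members, the extremes of each role and of count, and up to 2 called genes of each pathway list; the other members are given briefly so that each is accounted for. Spans, start regions and pseudogene names come from RefSeq (GRCr8), matched for all 58 members by Entrez number (55) or symbol; the authors' coordinates were not used.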

Additional observations from a re-analysis of the deposited data

How the results depend on the processing

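The median log2 fold change of the members was 0.20; it was 0.21 with RLE size factors, without the count filter and with DESeq2, and 0.18 to 0.23 when 1 library was left out, but -0.051 with scaling to neuronal genes. That scaling also took the members called higher to 3 and all genes called higher to 348, by moving every log2 fold change down. Leaving out 1 library gave 15 to 28 members called higher, 1 to 5 called lower, and, of all genes, 1208 to 2470 called higher and 2336 to 2910 lower; these fits have 1 library in an arm. The log2 fold change of Eif2s1 was -0.021 with neuronal scaling. The log2 ratio of Eif4a2 to Eif4a1 ran from -0.20 to 0.079 over the leave-one-out values, above 0 without DMSO replicate 2. Labels share replicate numbers between groups, and same-numbered libraries did not deviate together (r = -0.04 over 12162 genes). Genes are not replicates, so this value cannot show whether same-numbered libraries were paired. With the replicate as a block 23 members were higher (1822 of all genes) and 5 lower (2746 of all genes). In that edgeR fit Eif4e2 was not called (adjusted p = 0.0587) and Eif4h was called higher (adjusted p = 0.0346). DESeq2 gave 22 members higher (1706 of all genes) and 4 lower (2381), and limma-voom 23 higher (1997) and 6 lower (2867). Calls of Eif4e2 and Eif5a2 were lost with DESeq2, and that of Eif4e2 without the count filter. Duplicates of 2 limit every call, and for members of low count the counting error adds to it.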

Other observations

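The mitochondrial translation factors form a separate set that serves the mitochondrial ribosome. Of 10 measured with TMM, none rose and 2 fell, where 16.2% and 23.5% of all genes tested did. The median log2 fold change was 0.00, or -0.25 with scaling to neuronal genes. Gfm2, the mitochondrial ribosome recycling factor, had 15.7 and 14.0 CPM in the topotecan libraries, against 21.9 and 28.5 CPM in the DMSO libraries (log2 fold change -0.76 ± 0.15 SE, adjusted p = 0.00107 in edgeR's quasi-likelihood test). Gfm1, the mitochondrial translocase, had 59.0 and 64.0 CPM in the topotecan libraries, against 83.5 and 75.2 CPM in the DMSO libraries (log2 fold change -0.37 ± 0.10 SE, adjusted p = 0.00902); without topotecan replicate 1 its adjusted p was 0.139. The difference between the mitochondrial and cytoplasmic factors was not tested.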
